A study of Mus musculus with 7 samples.

Results

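Adipoq, Fabp4, Plin1, Plin4, Lep, Lpl, Cfd, Cidec, Pparg, and Retn are genes of the fat cell, and they were examined in RNA-Seq of mouse knee cartilage as a readout of joint and marrow fat. Neither the labels nor the counts say from which fat depot the transcripts came. They were chosen by name, as the genes of the table with exactly these symbols, which gave 10 of 55401 genes. All 10 were among the 16429 genes that passed the filter on low levels, which asked for over 1 CPM (counts scaled to a common library size) in 2 or more samples. The samples came from male C57BL/6J mice, WT or Trpc1-/-, that were 10 weeks old when the medial meniscus of the right knee was destabilized (DMM), an operation that induces osteoarthritis, and that were killed 2 weeks later. Trpc1-/- mice (Trpc1tm1Lbi) lack the calcium-permeable channel TRPC1 through a germline deletion, so that every cell of the joint carried it. By the labels there were 4 WT and 3 Trpc1-/- samples, and the design asks how the genotypes differed after DMM. Per the study's methods, each sample was a pool of 2 to 3 knees. All 7 samples had undergone DMM, so no level without it was measured here.

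Adipocytes store triglyceride in a single lipid droplet coated with perilipins, take up fatty acids that lipoprotein lipase frees from circulating lipoproteins, and release adipokines such as adiponectin and leptin. Their differentiation is driven by PPARγ and C/EBPα, which switch on most of the genes of the mature cell. In the knee, adipocytes are found in the infrapatellar fat pad, in the synovium, and in the bone marrow, next to the cartilage and subchondral bone. Several of these genes are not exclusive to fat. Lpl is also expressed by muscle and macrophages, Fabp4 by endothelium and macrophages, Plin4 by muscle, and Pparg by macrophages.

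The promoters of the members are shown as a description of their sequences. Most of the genes varied together from sample to sample, with Pparg apart, and a part of the promoters in this was not tested. RefSeq starts on GRCm38.p6 were available here for 8 of the 10 members, in 11 windows of the 250 bases before each start, and Fabp4 and Lpl had no entry. The letters CCAAT (the CCAAT box), TTGCGCAA (a C/EBP palindrome), AGGTCA (the half-site of nuclear receptors), 2 such half-sites in the same direction with any 1 base between them (the DR1 element that PPARγ and RXR bind), TATAAA (the TATA box), and GGGCGG (the GC box) were searched on both strands. The half-site lies inside the DR1 element, so the counts of these motifs overlap. The 3 windows below were chosen for their matches, as those with several CCAAT boxes or with the C/EBP palindrome. They are written 5′ to 3′ on the plus strand, on which all 3 genes lie, and carry the matches in capitals.

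Adipoq, chr16:23146286-23146535: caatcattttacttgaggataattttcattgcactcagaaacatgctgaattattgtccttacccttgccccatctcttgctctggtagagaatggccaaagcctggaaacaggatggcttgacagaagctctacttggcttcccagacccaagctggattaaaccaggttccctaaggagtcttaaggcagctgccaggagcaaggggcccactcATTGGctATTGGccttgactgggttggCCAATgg

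Lep, chr6:29059971-29060220: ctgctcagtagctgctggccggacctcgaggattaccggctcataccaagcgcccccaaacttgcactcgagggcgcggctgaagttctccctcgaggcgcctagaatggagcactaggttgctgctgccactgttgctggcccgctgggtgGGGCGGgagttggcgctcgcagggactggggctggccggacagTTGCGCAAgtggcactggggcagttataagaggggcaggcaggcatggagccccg

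Pparg, the most downstream of its 3 starts, chr6:115421816-115422065: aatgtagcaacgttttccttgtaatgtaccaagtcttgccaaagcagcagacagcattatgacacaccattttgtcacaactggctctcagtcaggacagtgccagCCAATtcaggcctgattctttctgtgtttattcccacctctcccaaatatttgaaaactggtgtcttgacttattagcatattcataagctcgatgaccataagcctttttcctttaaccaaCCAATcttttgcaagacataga

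The Adipoq window ends at the base before the annotated gene and held 3 CCAAT boxes, which began 34, 27, and 7 bases before the start. The Lep window held the C/EBP palindrome 55 bases and a GC box 98 bases before the start. The Pparg window lies inside the Pparg gene, upstream of the most downstream start, and held CCAAT boxes 144 and 22 bases before it. Of 32851 such windows in the mouse table, 33.8% held a CCAAT box, 32.7% a GC box, 14.0% a half-site, 12.4% a TATA box, 0.164% the palindrome, and 0.0335% the DR1 element. Of the 11 member windows, 4 held a CCAAT box, 3 a GC box, 2 a half-site, 1 a TATA box, 1 the palindrome, and 0 the DR1 element. A second Pparg start, not printed, had a window with a TATA box, a CCAAT box, a half-site, and 2 GC boxes. These matches describe the letters of the windows and were not tested as binding sites.

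The labelled tissue is articular cartilage, and the study's methods also list subchondral bone. Samples held between 52142451 counts (WT replicate 1) and 118254070 counts. Markers of cartilage (10 genes, summed CPM 5938.7 to 6459 in WT and 3405.1 to 6227 in Trpc1-/-) and of bone (10 genes, 7795.8 to 13880 and 6111.4 to 10490) were high, and so were those of red cells (10 genes, 18501 to 35679 and 41200 to 56586). No marker of the 10 lists examined was at 0 in all samples. The allele deletes part of Trpc1 and the counts cover the whole gene, which lay between 4.33 and 4.83 CPM in WT and between 3.04 and 3.79 CPM in Trpc1-/- samples. WT replicate 1 stood apart. It held 2948 summed CPM of 10 skeletal muscle markers, against 149.6 to 493.7 in the other WT samples, so each member is given with and without it. The p-values below set the difference between genotypes against the spread between these pools.

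Together the 10 genes took between 0.0339% and 0.0507% of the counts of a sample. Their summed level was 488 CPM in WT replicate 1, 378 in replicate 2, 346 in replicate 3, and 324 in replicate 4, and 470.0, 456, and 552 CPM in Trpc1-/- replicates 1 to 3. WT replicates 2 to 4 lay below all 3 Trpc1-/- samples, and WT replicate 1 lay among the Trpc1-/- samples. All 10 fitted log2 fold changes of Trpc1-/- over WT (logFC) were above 0 under TMM scaling, and 9 were (all but Retn) with library totals alone. The median was 0.35, where 48.1% of all tested genes were above 0 and their median was −0.0088. By the quasi-likelihood test of edgeR, adjusted over all tested genes after Benjamini and Hochberg, 0 of the 10 had an adjusted p under 0.05, as did 0% of all genes. The members' adjusted p by this test lay between 0.395 and 0.949. At an unadjusted p under 0.05, edgeR marked 4 members (Adipoq, Fabp4, Cidec, and Pparg), against 10% of all tested genes. DESeq2 called 1 member, Adipoq (adjusted p = 0.0231), against 1.79% of all genes. In bulk tissue, a change in the number of adipocytes and a change in RNA per adipocyte cannot be told apart.

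**Figure D1:**
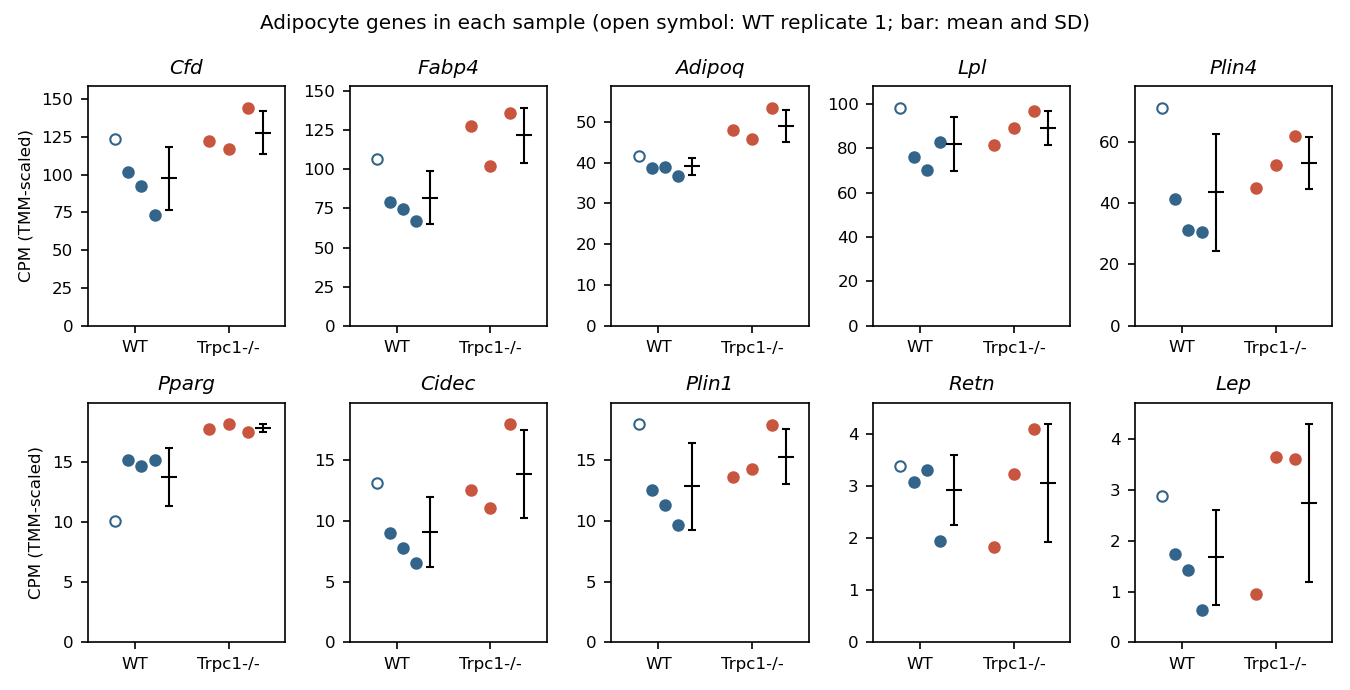
CPM after scaling by TMM (y axis) of each adipocyte gene in the 4 WT (blue) and 3 Trpc1-/- (red) samples, with bars for the mean and SD. Adipoq and Pparg did not overlap between genotypes, and the open symbol, WT replicate 1, is the highest WT sample for 9 genes and the lowest for Pparg.

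Levels between genes were compared as CPM per kb of exon, averaged over the 7 samples. Cfd, which encodes the complement protease adipsin, led with 119.8 ± 25.3 (SD, n = 7), followed by Fabp4, the cytoplasmic fatty acid binding protein of adipocytes, with 110.2 ± 29.5. Cfd lay above Fabp4 in 6 of 7 samples, so the order of these neighbors did not hold in each sample. Adipoq (33.5 ± 4.62) and Lpl (20.6 ± 2.53) came next, and both steps held in 7 of 7 samples. Plin4 (8.24 ± 2.63), Pparg (6.51 ± 1.16), and Cidec (6.33 ± 2.20) were close together, and each neighbor order held in 5 of 7 samples. Plin1 (3.59 ± 0.810), Retn (1.88 ± 0.511), and Lep (0.654 ± 0.384) were the lowest, in this order in 7 of 7 samples. Lep rested on the fewest reads, between 50 and 354 counts per sample.

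Positions of genes are from GENCODE M21 on GRCm38. Adipoq (ENSMUSG00000022878, chr16:23146536-23158028, plus strand), the adiponectin gene, had 41.7, 38.6, 39.0, and 36.8 CPM in WT replicates 1 to 4 and 47.9, 45.7, and 53.4 CPM in Trpc1-/- replicates 1 to 3. Each Trpc1-/- sample was above each WT sample, and the WT samples differed little, WT replicate 1 included. The WT mean was 39.0 ± 2.03 CPM (SD, n = 4), and that of the Trpc1-/- samples was 49.0 ± 3.97 CPM (SD, n = 3). The logFC was 0.33 (SE 0.079, 95% interval 0.15 to 0.51), with an adjusted p of 0.395 by edgeR's quasi-likelihood test and 0.0231 by DESeq2. Adipoq had the lowest biological coefficient of variation of the members, 0.0997, where the median of all tested genes was 0.153. The DESeq2 call was lost when any 1 sample other than WT replicate 1 or Trpc1-/- replicate 2 was left out.

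Pparg (ENSMUSG00000000440, chr6:115360951-115490399, plus strand), the nuclear receptor that directs adipocyte differentiation, was the other member without overlap. It had 10.1, 15.1, 14.7, and 15.1 CPM in WT replicates 1 to 4 and 17.8, 18.1, and 17.5 CPM in Trpc1-/- replicates 1 to 3. WT replicate 1 was the lowest sample here, opposite to its place in the other 9 genes, and the Trpc1-/- samples lay within a narrow range. The logFC was 0.37 (SE 0.14, interval 0.039 to 0.70; edgeR's quasi-likelihood adjusted p = 0.474) and 0.25 without WT replicate 1 (adjusted p = 0.121), where the groups still did not overlap. These 2 genes were 2 of 10 members higher in Trpc1-/- without overlap, and 0 members were lower without overlap. Of all tested genes, 7.15% were higher without overlap.

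Leptin, encoded by Lep (ENSMUSG00000059201, chr6:29060220-29073877, plus strand), signals fat stores to the brain. Its level was 2.89, 1.75, 1.42, and 0.636 CPM in WT replicates 1 to 4 and 0.947, 3.66, and 3.62 CPM in Trpc1-/- replicates 1 to 3. It varied more than any other member, and Trpc1-/- replicate 1 lay below 3 of the 4 WT samples. Its logFC had the largest point estimate of the members, 0.72, and the widest interval (−0.62 to 2.07; edgeR's quasi-likelihood adjusted p = 0.657), and its coefficient of variation was 0.529.

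Retn (ENSMUSG00000012705, chr8:3655770-3660110, plus strand) encodes resistin, which mouse adipocytes secrete. It had 3.37, 3.06, 3.30, and 1.95 CPM in WT replicates 1 to 4 and 1.84, 3.22, and 4.08 CPM in Trpc1-/- replicates 1 to 3. The range of the Trpc1-/- samples took in all 4 WT samples. The logFC of 0.060 (interval −0.65 to 0.77; edgeR's quasi-likelihood adjusted p = 0.949) was the smallest of the members, and it was −0.013 with scaling to library totals alone and −0.027 by limma-voom.

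Cfd (ENSMUSG00000061780, chr10:79890853-79892655, plus strand) had 123, 102, 92.5, and 73.1 CPM in WT replicates 1 to 4 and 122, 117, and 144 CPM in Trpc1-/- replicates 1 to 3. WT replicate 1 reached the Trpc1-/- samples and the other 3 WT samples did not. The logFC was 0.39 (SE 0.17, interval −0.012 to 0.79; edgeR's quasi-likelihood adjusted p = 0.507).

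Among the genes of lipid uptake and transport, Fabp4 (ENSMUSG00000062515, chr3:10204088-10208576, minus strand) had 106, 79.0, 74.7, and 67.2 CPM in WT replicates 1 to 4 and 127, 102, and 136 CPM in Trpc1-/- replicates 1 to 3. The groups overlapped through WT replicate 1 and Trpc1-/- replicate 2. The WT mean was 81.8 ± 17.0 CPM (SD, n = 4) and the Trpc1-/- mean was 121.5 ± 17.6 CPM (SD, n = 3), a logFC of 0.57 (SE 0.17, interval 0.17 to 0.97; edgeR's quasi-likelihood adjusted p = 0.408; DESeq2 adjusted p = 0.0812). Lpl (ENSMUSG00000015568, chr8:68880491-68907448, plus strand), the enzyme that frees fatty acids from lipoproteins, had 98.1, 76.1, 70.0, and 82.8 CPM in WT and 81.4, 89.2, and 96.7 CPM in Trpc1-/- samples. Here the genotypes overlapped widely, and the highest sample was WT replicate 1. The logFC of Lpl was 0.12 (interval −0.17 to 0.42; edgeR's quasi-likelihood adjusted p = 0.721).

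Of the genes that coat the lipid droplet, Plin1 (ENSMUSG00000030546, chr7:79720218-79732903, minus strand), the perilipin that controls access of lipases, had 18.0, 12.5, 11.3, and 9.66 CPM in WT and 13.7, 14.3, and 17.9 CPM in Trpc1-/- samples. Plin4 (ENSMUSG00000002831, chr17:56100591-56109803, minus strand), which coats nascent droplets, had 71.0, 41.3, 31.1, and 30.6 CPM in WT and 44.9, 52.5, and 61.8 CPM in Trpc1-/- samples. For both, WT replicate 1 was the highest of the 7 samples and the other WT samples lay below all Trpc1-/- samples. Cidec (ENSMUSG00000030278, chr6:113424634-113435760, minus strand), which promotes the fusion of droplets, had 13.1, 9.01, 7.74, and 6.49 CPM in WT and 12.5, 11.0, and 17.9 CPM in Trpc1-/- samples. WT replicate 1 exceeded 2 of the 3 Trpc1-/- samples for Cidec. The logFC was 0.25 for Plin1, 0.29 for Plin4, and 0.61 for Cidec, and of these the 95% interval was above 0 for Cidec (0.0048 to 1.21), whose adjusted p was 0.499 by edgeR's quasi-likelihood test.

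Without WT replicate 1, the WT samples of 7 members (all but Lep, Lpl, and Retn) lay below all Trpc1-/- samples, where 11.3% of all tested genes were higher without overlap. The logFC was then 0.36 for Adipoq, 0.72 for Fabp4, 0.45 for Plin1, 0.62 for Plin4, 1.09 for Lep, 0.22 for Lpl, 0.52 for Cfd, 0.83 for Cidec, 0.25 for Pparg, and 0.13 for Retn, with a median of 0.48. At an unadjusted p under 0.05, edgeR marked 8 members, against 16.9% of all genes. By edgeR's quasi-likelihood test with adjustment, 0 of 10 members passed, against 0.298% of all genes, and the smallest adjusted p was 0.0569, for Fabp4. DESeq2 called 7 members, with adjusted p between 3.35e-07 for Fabp4 and 0.0354 for Plin1, against 5.42% of all genes. The 7 were Adipoq, Fabp4, Plin1, Plin4, Cfd, Cidec, and Pparg. The count of DESeq2 calls among the members thus moved from 1 to 7 with this 1 sample. WT replicate 1 was the highest WT sample for 9 members, so leaving it out lowers their WT mean whatever the genotype does. Of the WT samples left, replicates 3 and 4 carry the higher series of library numbers described below, which holds no Trpc1-/- sample.

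**Figure D2:**
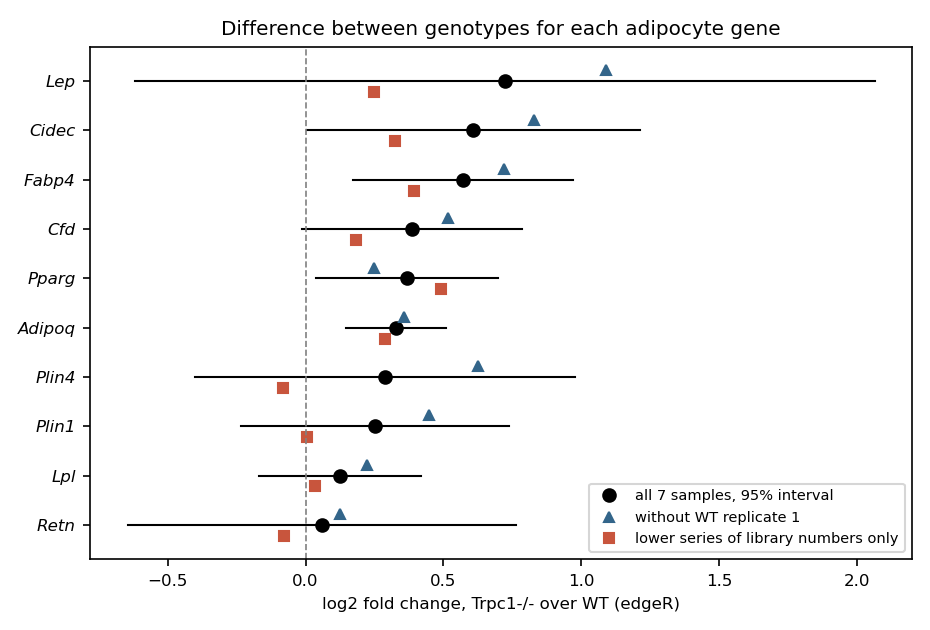
log2 fold change of Trpc1-/- over WT by edgeR (x axis) for each adipocyte gene, as circles with 95% intervals for all 7 samples, triangles without WT replicate 1, and squares for the lower series of numbers in the library names (5 samples). Leaving out WT replicate 1 gave a higher value for 9 genes and a lower one for Pparg (0.25), and the squares lay below 0 for Plin4 and Retn.

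The library names in the labels hold numbers in 2 series, whose meaning the labels do not give. WT replicates 3 and 4 carry the higher numbers and all other samples the lower ones. Within the lower series, WT replicates 1 and 2 were compared with the 3 Trpc1-/- samples. There, 8 of 10 members had a logFC above 0, with a median of 0.22, and Plin4 (−0.081) and Retn (−0.080) had one below 0. Plin1 (0.0067) and Lpl (0.033) were near 0, and Cfd (0.18), Lep (0.25), Cidec (0.32), and Fabp4 (0.39) were smaller than over all samples. Adipoq (0.29) and Pparg (0.49) were the members at an unadjusted p under 0.05 by edgeR's quasi-likelihood test, each with an adjusted p of 0.378. The share of all genes under that unadjusted limit was not counted in this series. DESeq2 called 0 members there. The higher series holds WT samples alone and gave no comparison.

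The members were then compared with each other across the samples. Of the WT samples, replicate 1 was the highest for 9 members and replicate 4 the lowest for 8, and of the Trpc1-/- samples, replicate 3 was the highest for 8. Relative to Adipoq in the same sample, the lipase gene Lpl was the most constant member, with a ratio of CPM of 2.09 ± 0.256 in WT and 1.82 ± 0.128 in Trpc1-/- samples and a 1.39-fold range over the 7 samples. The Fabp4 ratio was 2.08 ± 0.322 in WT and 2.47 ± 0.219 in Trpc1-/- samples. Lep was the least constant, with a 4.64-fold range, and Retn and Plin4 spanned 2.21-fold and 2.14-fold.

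**Figure D3:**
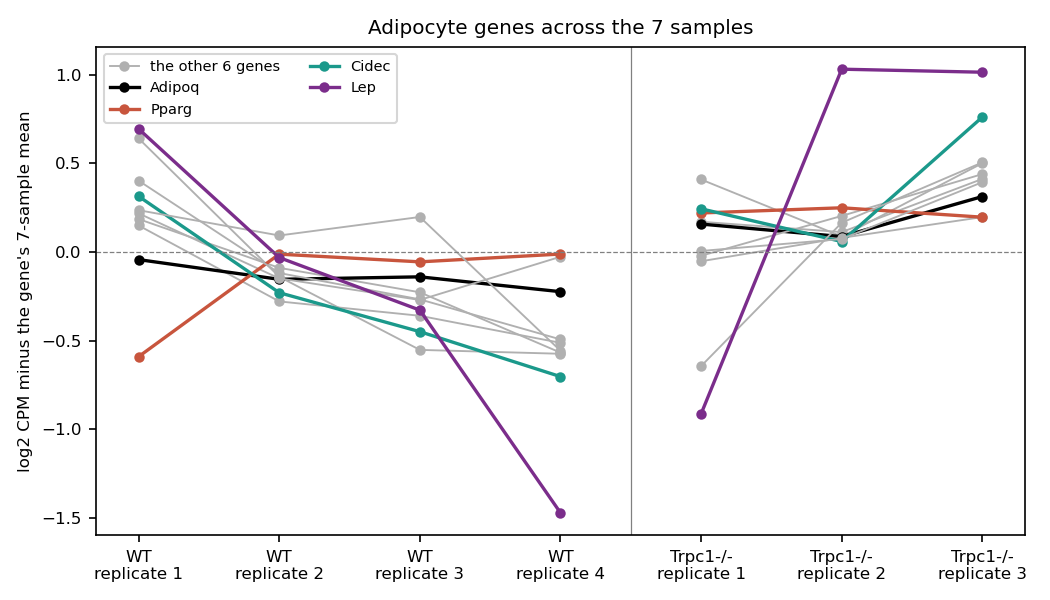
log2 CPM of each adipocyte gene minus its mean over the 7 samples (y axis) in each sample (x axis), with lines joining the values of a gene within a genotype for reading only. Most genes are above their mean in WT replicate 1 and Trpc1-/- replicate 3 and below it in WT replicates 2 to 4, whereas Pparg is at −0.59 in WT replicate 1.

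Likeness was described as Pearson's r, over the 7 samples, with the mean profile of Adipoq, Plin1, and Cidec, 3 genes of the mature adipocyte that are themselves part of that mean. The r was 0.998 for Cidec, 0.953 for Plin1, and 0.897 for Adipoq. It was 0.978 for Cfd, 0.950 for Fabp4, 0.898 for Plin4, 0.735 for Lpl, 0.730 for Lep, 0.491 for Retn, and 0.0615 for Pparg. Among 16429 genes, Cfd ranked 4 and Fabp4 20, whereas Pparg ranked 7029. Pparg was higher in all Trpc1-/- samples yet did not follow the order of the samples within a genotype. The points share the pooling, the libraries, and the genotype contrast, and the r carries no test. Of the genes that were not members, the 10 most alike were Actc1 (0.983), Mipep (0.979), Asb2 (0.978), 1110019D14Rik (0.974), Meox1 (0.967), Gpd1 (0.963), Adig (0.963), Lgals12 (0.959), Snhg1 (0.955), and Cacng1 (0.955). Among them, Gpd1, Adig, and Lgals12 are genes of adipocytes, and Actc1, Asb2, and Cacng1 are genes of muscle.

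The markers of other cells that express some of the members were summed in each sample. Skeletal muscle markers summed to 2948, 493.7, 325.7, and 149.6 CPM in WT replicates 1 to 4 and to 654.7, 1495, and 1936 CPM in Trpc1-/- replicates 1 to 3, and all 10 had a logFC above 0 (median 0.60; 0 called by edgeR or DESeq2). In both genotypes, the sample with the most muscle marker was the one with the highest summed adipocyte genes. In WT the order of the other samples matched too. In Trpc1-/- it did not, as replicate 2 had more muscle marker than replicate 1 but less of the adipocyte genes (456 against 470.0 CPM). Macrophage markers summed to 494.9, 700.6, 721.7, and 677.6 CPM in WT and 795.9, 695.3, and 773.2 CPM in Trpc1-/- samples, with a logFC above 0 for 8 of 9 tested markers. WT replicate 1, the lowest for Pparg, was also the lowest of all samples for macrophage, red cell, neutrophil, B cell, and osteoclast markers. Among the WT samples it was the highest for muscle, cartilage, bone, and synovial fibroblast markers and the lowest for endothelial markers. Of the other lists, cartilage markers (10 of 10, median −0.45) and bone markers (10 of 10, median −0.36) had a logFC below 0. So did synovial fibroblast markers (7 of 8, median −0.28), while osteoclast markers were mixed (3 above 0, 5 below, median −0.10). Neutrophil markers (10 of 10, median 0.11) and B cell markers (7 of 8, median 0.33) had one above 0. Neutrophil markers summed to 5569 CPM in WT replicate 1, 13944 to 17615 in the other WT samples, and 12996 to 17049 in Trpc1-/- samples. Endothelial markers stayed between 265.8 and 300.0 CPM, with a logFC below 0 for 9 of 10, and that of the red cell markers was above 0 for 10 of 10 (4 called by DESeq2). The part of muscle, macrophages, marrow, cartilage, bone, or synovium in the adipocyte values was not tested.

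**Figure D4:**
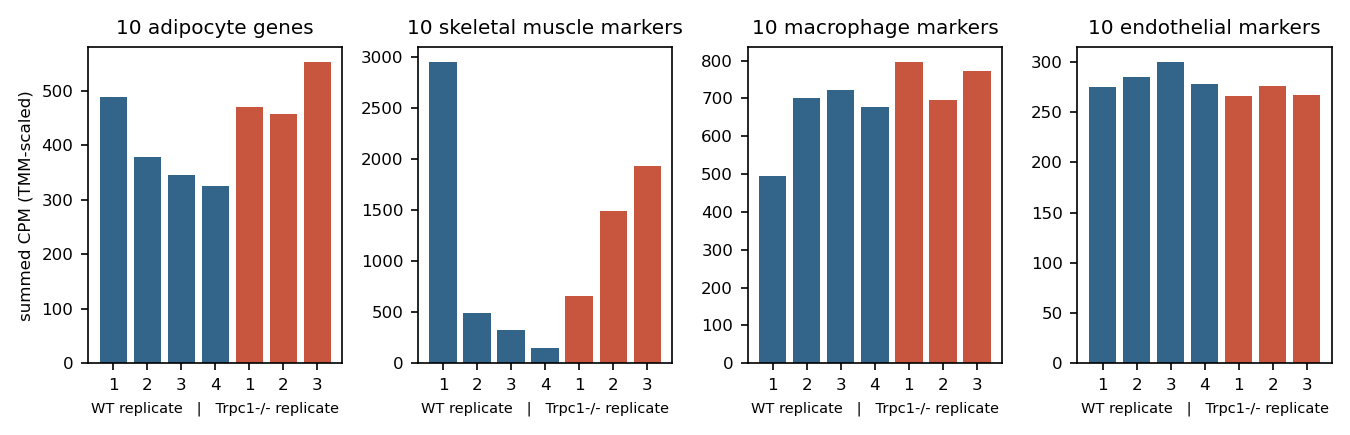
Summed CPM (y axis, from 0) of the 10 adipocyte genes and of the markers of skeletal muscle, macrophages, and endothelium in WT replicates 1 to 4 (blue) and Trpc1-/- replicates 1 to 3 (red). WT replicate 1 is high for adipocyte genes (488) and muscle markers (2948) and low for macrophage markers (494.9).

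Genes that act with the members were examined as 8 lists, of which 84 of 92 genes passed the filter. Of the 84, 45 had a logFC above 0 and 39 below, with a median of 0.014, against 0.35 for the 10 members and −0.0088 for all genes. By edgeR's quasi-likelihood test with adjustment 0 of the 84 passed, with 4 higher and 6 lower at an unadjusted p under 0.05, against 10% of all genes, and 5 were higher and 6 lower without overlap, where 13.6% of all genes were without overlap, in one direction or the other. DESeq2 called 1 higher, Kitl (adjusted p = 0.0177), and 1 lower, Dio2 (adjusted p = 0.0251), so 2 of the 84 against 1.79% of all genes. It called 10 of the 84 without WT replicate 1, against 5.42% of all genes, 5 without WT replicate 4 (1.72%), and 3 without Trpc1-/- replicate 2 (2.23%). It called 1 within the lower series of library numbers (1.12%), 1 with that series as a covariate (2.43%), and 1 without Trpc1-/- replicate 1 (0.481%). With the replicate block and without WT replicate 2, WT replicate 3, or Trpc1-/- replicate 3, it called 0 of the 84. The median of the lists was close to that of all genes.

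For triglyceride synthesis and the droplet coat, 6 of 12 genes lay above 0 and 6 below (median 0.039). Gpd1, which makes the glycerol phosphate backbone, had 17.8, 15.4, 14.7, and 12.2 CPM in WT replicates 1 to 4 and 19.6, 19.2, and 23.3 CPM in Trpc1-/- replicates 1 to 3. Its groups did not overlap (logFC 0.46, SE 0.14, edgeR's quasi-likelihood adjusted p = 0.407), and it followed the order of the samples seen for the members. Dgat1, which makes the final step of triglyceride synthesis, was lower in each Trpc1-/- sample than in each WT sample (54.2 ± 3.99 CPM in WT, 45.2 ± 3.12 CPM in Trpc1-/-, logFC −0.26, edgeR's quasi-likelihood adjusted p = 0.426). Dgat2, which catalyzes the same step, had a logFC of 0.19, and Plin2, a droplet coat protein of many cell types, had 0.15.

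For lipolysis, 7 of 8 genes lay above 0 (median 0.12), and the genotypes overlapped for each of them. The lipases Pnpla2, Lipe, and Mgll, which remove the fatty acids of a triglyceride in turn, had a logFC of 0.12, 0.14, and 0.16. The cofactor Abhd5 had 0.011, and Pde3b, which insulin uses to restrain lipolysis, had 0.12.

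For fatty acid uptake and the partners of lipoprotein lipase, 8 of 13 genes lay above 0 (median 0.045). Gpihbp1, which carries LPL across the capillary wall, lay between 4.64 and 4.71 CPM in WT and at 5.19, 4.76, and 5.63 CPM in Trpc1-/- replicates 1 to 3, without overlap (logFC 0.15, edgeR's quasi-likelihood adjusted p = 0.622). Acsl1, which activates fatty acids, lay between 151.9 and 164.3 CPM in WT and at 201.1, 170.1, and 196.0 CPM in Trpc1-/-, also without overlap (logFC 0.25, edgeR's quasi-likelihood adjusted p = 0.454). Vldlr, a lipoprotein receptor, had the opposite sign, also without overlap (41.2 ± 5.49 CPM in WT, 29.4 ± 5.52 CPM in Trpc1-/-, logFC −0.49, edgeR's quasi-likelihood adjusted p = 0.409). The fatty acid transporter Cd36 (logFC 0.045), Fabp5 (0.35), and Apoe (0.18) overlapped between genotypes.

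For fatty acid synthesis, 6 of 12 genes lay above 0 and 6 below (median −0.0050). Scd1, the stearoyl-CoA desaturase, had 537.1, 368.6, 328.2, and 293.5 CPM in WT replicates 1 to 4 and 459.7, 428.6, and 510.6 CPM in Trpc1-/- replicates 1 to 3 (logFC 0.29, edgeR's quasi-likelihood adjusted p = 0.624). Its WT replicate 1 was again the highest sample. Scd1 and Thrsp, a lipogenic gene with a logFC of 0.23, ranked 15 and 18 in likeness to the adipocyte profile. Me1 (−0.34), Acaca (−0.13), and Acly (0.015) were the other genes named by the rule.

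Of the adipogenic transcription factors, 3 of 12 lay above 0 and 9 below (median −0.14), in contrast to Pparg. Cebpa, the partner of Pparg in differentiation, was at 36.7 ± 2.44 CPM in WT and 37.8 ± 2.5 CPM in Trpc1-/- samples (logFC 0.045, interval −0.14 to 0.23). Rxra, which binds DNA together with PPARγ, was at 48.4 ± 2.14 and 43.8 ± 0.718 CPM, lower in Trpc1-/- samples without overlap (logFC −0.14, edgeR's quasi-likelihood adjusted p = 0.504). Zfp423 (−0.36) had a wider interval that included 0, and Ebf1, which B cells share with fat cell precursors, had −0.039.

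Of the adipokine receptors and genes of the insulin response, 7 of 12 lay above 0 and 5 below (median 0.038). The adiponectin receptors Adipor1 (logFC 0.25) and Adipor2 (0.11), the leptin receptor Lepr (0.15), and Cap1 (0.075), a receptor of resistin, had intervals that included 0. Cdh13, which encodes T-cadherin and binds adiponectin at the cell surface, was lower in Trpc1-/- samples by the point estimate (31.6 ± 6.37 CPM in WT, 22.6 ± 3.07 CPM in Trpc1-/-, logFC −0.49, edgeR's quasi-likelihood adjusted p = 0.458). Nnat, which encodes neuronatin, had the largest logFC of the lists, 1.52, at levels of 0.827 to 3.52 CPM in WT and 2.43 to 7.86 CPM in Trpc1-/- samples (edgeR's quasi-likelihood adjusted p = 0.453).

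Ucp1, the uncoupling protein of brown fat, had 0 counts in all 7 samples, which allows up to 3 counts or between 0.0244 and 0.0632 CPM. Of the 8 brown and beige fat genes listed, 4 passed the filter. Dio2, the deiodinase that activates thyroid hormone, had 23.5, 21.8, 21.9, and 18.0 CPM in WT replicates 1 to 4 and 16.9, 14.1, and 12.7 CPM in Trpc1-/- replicates 1 to 3. The groups did not overlap, and the logFC was −0.55 (SE 0.13, edgeR's quasi-likelihood adjusted p = 0.395, DESeq2 adjusted p = 0.0251). The DESeq2 call of Dio2 was lost in 6 of 10 alternatives, among them leaving out WT replicate 2, WT replicate 3, Trpc1-/- replicate 2, or Trpc1-/- replicate 3, with adjusted p by DESeq2 up to 0.440. Tmem26 (0.19) and Cox8b (0.17) had intervals that included 0.

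Of the genes of fat cell progenitors and marrow stroma, 5 of 11 lay above 0 and 6 below (median −0.15). Kitl, the stem cell factor of the marrow niche, had 57.0, 49.6, 49.8, and 53.6 CPM in WT replicates 1 to 4 and 67.9, 61.8, and 71.6 CPM in Trpc1-/- replicates 1 to 3. The groups did not overlap (logFC 0.35, SE 0.083, edgeR's quasi-likelihood adjusted p = 0.395, DESeq2 adjusted p = 0.0177). Of 10 alternatives, the DESeq2 call of Kitl held without WT replicate 1 and without Trpc1-/- replicate 2 and was lost in the other 8, with adjusted p by DESeq2 up to 0.516. Cxcl12, the other stromal niche factor named by the rule, was also without overlap, at 429.5 to 479.5 CPM in WT and 493.6 to 524.0 CPM in Trpc1-/- (logFC 0.20, edgeR's quasi-likelihood adjusted p = 0.499). The stromal transcription factor Foxc1 (−0.27), the receptor Pdgfrb (−0.28, without overlap), and Ly6a (−0.28), a marker of progenitors, were on the lower side, none with an adjusted p under 0.05 in edgeR or DESeq2.

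**Figure D5:**
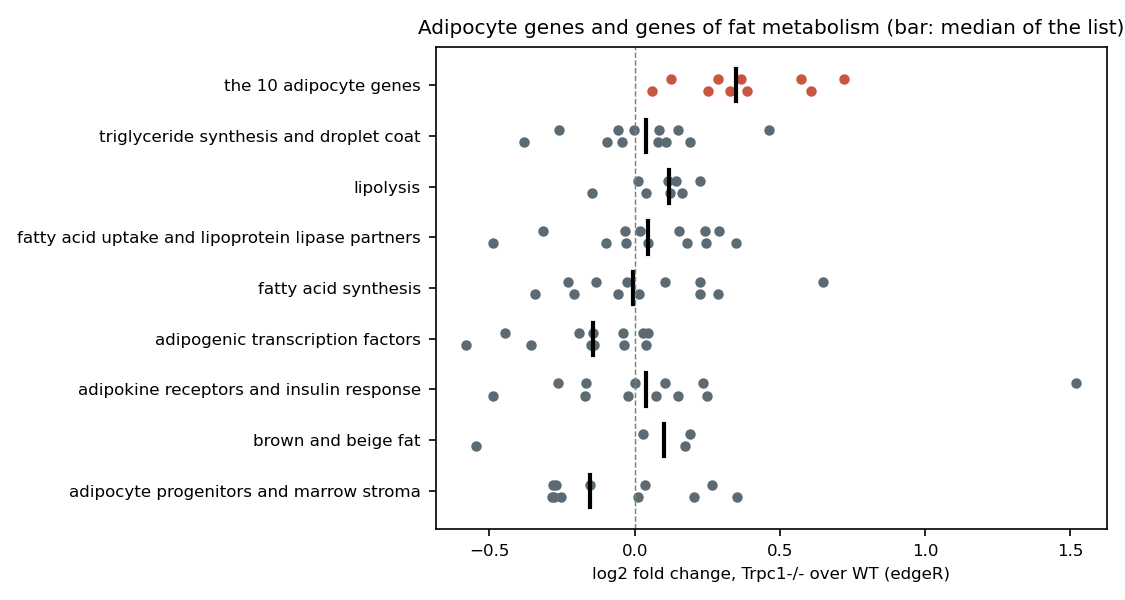
log2 fold change of Trpc1-/- over WT by edgeR (x axis) of the 10 adipocyte genes (red) and of the genes in 8 lists of fat metabolism (grey), with a bar at the median of each list. All 10 adipocyte genes lie above 0 under TMM scaling (median 0.35), with Retn below 0 by library totals alone, whereas the lists lie on both sides of 0, with medians from −0.15 to 0.12.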

How the data were processed

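RNA-Seq libraries were depleted of ribosomal RNA and stranded. Per the study's methods and the submitters' processing notes, reads were trimmed with Cutadapt 2.5, aligned to GRCm38 with HISAT2 2.1.0, and quantified with StringTie 2.0.3. The authors deposited estimated counts per gene, for 55401 genes in each of 7 samples. They are whole numbers, not normalized, so rounding left them unchanged, and 0 columns lacked a matching label. Because they come from transcript coverage, the sharing of reads between overlapping genes was set before deposition.

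The filter asked for over 1 CPM in 2 or more samples and left 16429 genes. Counts were scaled by TMM and fitted by genotype in edgeR 4.0.16 (R 4.3.3), whose quasi-likelihood p-values were adjusted after Benjamini and Hochberg over all 16429 genes. CPM are TMM-scaled. Lengths are the exon union of GENCODE M21 basic transcripts. Total counts lay between 52142451 and 118254070. The floor was 3 counts, and it covers counting error only.

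Members, gene lists, and marker lists were chosen with earlier results of these data known. All members are named, and of each list the 3 tested genes with the smallest unadjusted edgeR p, the 2 highest per length, and direct partners of the members. Some genes covered by this rule are not reported here. Alternatives were DESeq2 1.42.0, limma-voom (limma 3.58.1), 2 other scalings, 2 other filters, the replicate block, the series of library numbers, and leaving out 1 sample at a time. The replicate block was fitted to replicates 1 to 3 of each genotype, so WT replicate 4 was left out of it. Before use, the fits were tested on simulated data. The changes set there were larger than those of the members with all samples, so changes of the members' size were not covered. The labels give 4 WT and 3 Trpc1-/- samples and the Methods the reverse numbers, and the labels were used. No sample pair of the 21 had identical counts (0).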

Additional observations from a re-analysis of the deposited data

Results flagged for a closer look

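In 9 of 61 groups of 4 WT samples, 1 sample was farther from the other 3 than the limit of Dixon's test at 95%. Chance passes that limit in about 1 of 20 independent groups. The groups here are genes and sums of genes in the same 4 libraries, so they are not independent. In 8 of the 9 groups past the limit, the sample was WT replicate 1. It was the lowest WT sample for Pparg, at 10.1 CPM against 14.7 to 15.1 in the others, and it was the highest for the summed skeletal muscle markers, at 2948 CPM against 149.6 to 493.7. It was also the lowest for Plin2 (40.7 CPM against 47.7 to 48.8), Apoe (208.2 against 323.2 to 343.9), Acly (84.1 against 136.1 to 146.3), Tmem26 (6.81 against 10.7 to 11.2), and Foxc1 (22.3 against 26.2 to 26.8), and the highest for Vldlr (49.4 against 37.6 to 39.2). For Cxcl12, WT replicate 4 was the highest, at 479.5 CPM against 429.5 to 435.4.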

How the results depend on the processing

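Among the 10 adipocyte genes, edgeR called 0 with all samples and under each alternative run with it, while DESeq2 called 1 (Adipoq). With the DESeq2 alternatives, which were added after the data were seen, it called 0 members with the replicate block (0.323% of all genes), 0 within the lower series of library numbers (1.12%), 0 with that series as a covariate (2.43%), and between 0 and 7 with 1 sample left out (0.225% to 5.42%), with 7 without WT replicate 1, 2 without Trpc1-/- replicate 2, and 0 for each other sample. Of the genes in the 8 lists, DESeq2 called 2 (Kitl and Dio2) where edgeR called 0, and the call of Kitl was lost in 8 and that of Dio2 in 6 of 10 DESeq2 alternatives. The members at an unadjusted p under 0.05 by edgeR numbered 2 in the lower series, 2 with the series as a covariate, and 2 to 8 with 1 sample left out. The share of all genes under that limit was counted with all samples (10%) and without WT replicate 1 (16.9%) only, so the other counts have no share to set beside them. Members without overlap numbered 4 with library totals, where 11.2% of all genes were without overlap, and 2 within the lower series, where 34.9% were. With 1 sample left out they numbered 2 to 7, where 15.1% to 28.4% of all genes were without overlap. The 7 were found without WT replicate 1, where the share of all genes was 22.7%. The logFC of Retn was −0.027 by limma-voom, −0.013 with library totals, −0.16 with the replicate block, −0.080 in the lower series, −0.080 with the series as a covariate, and −0.21 to 0.32 with 1 sample left out. That of Plin4 was −0.081 in the lower series and −0.081 with it as a covariate. The cause of these changes was not tested. The other 8 members had a logFC above 0 under every alternative, though in the lower series it was 0.0067 for Plin1, 0.033 for Lpl, 0.18 for Cfd, and 0.25 for Lep. With library totals the median of all genes moved to −0.067.

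Same-numbered samples of the 2 genotypes did not deviate together (r = −0.36, −0.21, and −0.048), so the numbers were not taken to pair the samples. With the replicate block, which left out WT replicate 4, edgeR called 0 members. There, 3 had an unadjusted p under 0.05 (share of all genes not counted), and 9 had a logFC above 0, against 52.2% of all genes. The effects of the block and of leaving out that sample cannot be told apart in this fit. Leaving out WT replicate 4 without the block gave Retn a logFC of −0.092. No sham-operated or unoperated sample was analysed here, and the lowest member, Lep, rests on 50 to 354 counts.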
